A study of Mus musculus with 4 samples.

Results

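The genes described here are the ligands of the PDGF and VEGF families and the PDGF receptors, growth factor signals with known roles in the growth of interstitial tissue and in the entry of vessels into the gonad. They were chosen by symbol, and all 9 were found among the 40999 features in the deposited tables: 7 ligands (Pdgfa, Pdgfb, Pdgfc, Pdgfd, Vegfa, Vegfb and Vegfc) and 2 receptors (Pdgfra and Pdgfrb). The study profiled long and small RNA in gonads of C57BL/6J wild-type mouse embryos over the days in which the bipotential gonad becomes a testis or an ovary. Total RNA was depleted of rRNA and made into 1 stranded library a day over 4 days, from E11.5 to E14.5, so no difference has a replicate check. Each library came from a pool of 6 or more XX and 6 or more XY gonads out of 2 litters, so no value below can be assigned to either sex. The E11.5 pool was whole genital ridge with the mesonephros still attached, whereas the mesonephros had been removed from E12.5 onward.

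PDGF ligands are secreted dimers that act through the receptor tyrosine kinases PDGFRα and PDGFRβ, and VEGF ligands act through the receptors Flt1, Kdr and Flt4, which are found mainly on endothelial cells. In the fetal testis, Pdgfra is needed for normal cord formation and for the differentiation of fetal Leydig cells, and endothelial cells that migrate from the mesonephros build the coelomic vessel. In vessels of many tissues, endothelial Pdgfb recruits mural cells that carry Pdgfrb.

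The libraries held 31266481, 25593453, 31752562 and 31526303 counts from E11.5 to E14.5. A set of 28 nuclear rRNA genes took 9.06%, 1.31%, 1.03% and 40.7% of them in the same order, so the E14.5 library had the fewest counts left for other genes. Levels of a gene across libraries are therefore given as scaled CPM, which is the count relative to a library size corrected by TMM over the 4 libraries, and levels of different genes within a library as TPM, which is per transcript length. A limit of 3 counts corresponded to 0.0959, 0.117, 0.0945 and 0.0952 unscaled CPM in the order of the time points, and every member lay above it in every library. Intervals in the text are 95% intervals of counting error only and hold no spread between animals or libraries.

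The markers of the labelled tissue were present in every library. Summed over the 6 gonadal somatic cell markers, scaled CPM was 741, 1161, 1063 and 942 from E11.5 to E14.5, with Wt1 the most abundant by TPM at E11.5 and Gata4 at the later time points. The 9 mesonephric and nephric markers summed to 192 scaled CPM at E11.5 and to 31.1, 26.4 and 35.1 afterward, with Six2 the most abundant by TPM at E11.5. Fewer cells of a type and less RNA per cell cannot be told apart in such bulk samples.

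Pdgfra, the receptor that marks much of the gonadal interstitium, had the highest TPM of the 9 members in all 4 libraries, at 44.9, 70.5, 87.9 and 39.5 from E11.5 to E14.5. Vegfa, the main inducer of vessel growth, was next at E11.5 (39.8 TPM), E12.5 (46.3 TPM) and E13.5 (51.4 TPM). At E11.5 its interval overlapped that of Pdgfc (38.3 TPM). The least abundant members were the same pair throughout: Pdgfd was last at E11.5 (3.60 TPM), and Vegfc, a ligand of Flt4 in lymphatic vessels, was last in the other 3 libraries (2.74, 3.32 and 0.908 TPM). Some neighbors in the order could not be separated by their counting intervals: Vegfb and Pdgfb at E11.5, Pdgfa and Vegfb at E12.5, and Pdgfrb, Vegfb and Pdgfa in a chain at E13.5. At E14.5 Pdgfrb (14.9 TPM), Pdgfb (14.3 TPM), Vegfa (13.3 TPM), Pdgfa (12.7 TPM) and Vegfb (12.2 TPM) lay so close that each interval overlapped the next. Pdgfb was 6th of the 9 members by TPM at E11.5 and 7th at E12.5 and E13.5, and it stood 3rd at E14.5. The order was the same on the deposited RPKM scale in every library, since RPKM and TPM differ only by a factor common to all genes of a library.

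Pdgfa (chr5:138976381-138996199, minus strand, build mm10) encodes a ligand of PDGFRα. It had 455, 1020, 1118 and 601 counts from E11.5 to E14.5. These counts corresponded to 13.3, 32.5, 28.3 and 31.9 scaled CPM. The E11.5 library was the low one, and the 3 later libraries lay close together.

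Pdgfc (chr3:81036416-81214040, plus strand), whose product also acts on PDGFRα once its CUB domain has been cleaved off, ran the other way. Its counts were 3041, 1159, 1203 and 461 from E11.5 to E14.5, or 88.7, 36.9, 30.4 and 24.5 scaled CPM. The E11.5 library was the high one, and each later library was lower than the one before it. As a share of the summed TPM of the 4 PDGF ligands, a ratio that no scaling between libraries enters, Pdgfc took 51.9% at E11.5 and 27.1% or less in each later library. Pdgfa took 16.6%, 50.9%, 51.6% and 37.6% from E11.5 to E14.5, so of these 2 ligands Pdgfc had the higher TPM in the first library and Pdgfa in the other 3.

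Pdgfb (chr15:79995865-80014808, minus strand), a ligand of both receptors, was high at both ends of the series. Its counts were 2125, 786, 812 and 1953 from E11.5 to E14.5, or 62.0, 25.1, 20.5 and 104 scaled CPM. It made up 26.6% of the PDGF ligand TPM at E11.5 and 12.9% at E13.5. At E14.5, with 42.1%, it was the PDGF ligand with the highest TPM, although its counting interval overlapped that of Pdgfa. The ratio of Pdgfb to Pdgfrb in TPM was 0.641, 0.347, 0.217 and 0.958 in the order of the days. The libraries in which Pdgfb was high were also those with the larger nuclear rRNA shares, and the part of rRNA in the Pdgfb values was not tested.

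Pdgfd (chr9:6168366-6379256, plus strand), a ligand of PDGFRβ, had 305, 385, 467 and 249 counts from E11.5 to E14.5, or 8.90, 12.3, 11.8 and 13.2 scaled CPM. It was the least abundant PDGF ligand by TPM in each library and its share of the PDGF ligand TPM lay between 4.88% and 9.48%.

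Vegfa (chr17:46016993-46032377, minus strand) had 3691, 3226, 4126 and 1559 counts from E11.5 to E14.5. On the scaled CPM axis these were 108, 103, 104 and 82.8, a narrow range in which E14.5 was the low library. Vegfb (chr19:6982472-6987651, minus strand), a ligand of Flt1, had 626, 683, 950 and 439 counts, or 18.3, 21.8, 24.0 and 23.3 scaled CPM. Among the 3 VEGF ligands, Vegfa took 58.5%, 57.2%, 55.1% and 50.4% of the TPM in the order of the days, and Vegfb took 32.3%, 39.4%, 41.3% and 46.2%.

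Vegfc (chr8:54077532-54186454, plus strand) had the fewest counts of the 9 members in every library, at 260, 86, 120 and 48 from E11.5 to E14.5. Its scaled CPM was 7.59 at E11.5 and then 2.74, 3.03 and 2.55. The first library stood above the other 3, whose counting intervals overlapped.

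Both receptors were abundant throughout. Pdgfra (chr5:75151417-75198211, plus strand) had 7926, 9338, 13428 and 8818 counts, which gave 231, 298, 339 and 468 scaled CPM, each library higher than the one before it. Pdgfrb (chr18:61045150-61085068, plus strand), the receptor of mural cells and of part of the mesenchyme, had 4545, 3110, 5135 and 2795 counts, or 133, 99.1, 130 and 148 scaled CPM. The low library for Pdgfrb was E12.5. The TPM of Pdgfra exceeded that of Pdgfrb by a factor of 1.47 at E11.5 and by factors between 2.20 (E13.5) and 2.65 (E14.5) in the later libraries.

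**Figure D1:**
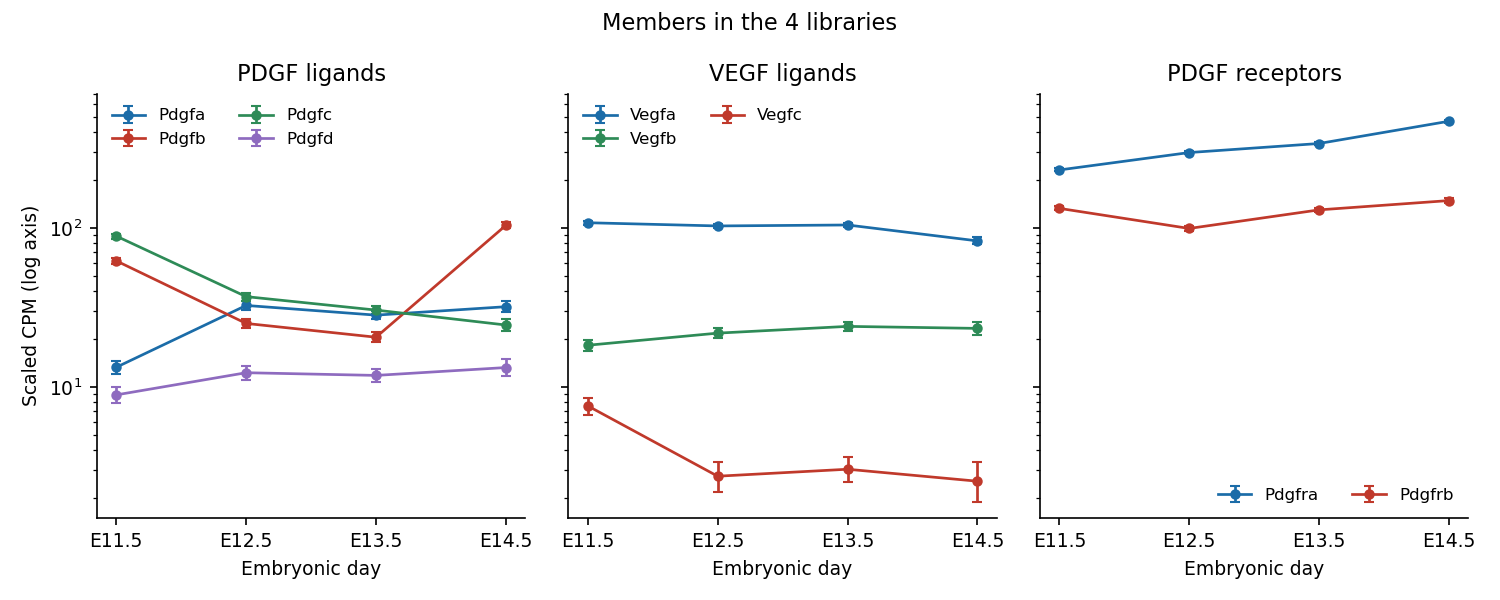
Scaled CPM (counts relative to the TMM-corrected library size, log axis) of the PDGF ligands, VEGF ligands and PDGF receptors at each embryonic day; a point is 1 library and a bar its 95% Poisson counting interval. Pdgfa is low and Pdgfc and Vegfc are high at E11.5, Pdgfb reaches 104 scaled CPM at E14.5, and Pdgfra lies above every other member in each library.

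The first comparison, E12.5 versus E11.5, spans sex determination and asked which of these signals changed as the gonad took on its fate. A gene was counted as changed when its fold change was at least 2-fold in either direction among genes kept by a filter on low counts, and all 9 members were kept in every comparison. Pdgfa rose by a log2 fold change of 1.29 (1.13 to 1.46). Pdgfb, Pdgfc and Vegfc fell, with log2 fold changes of −1.31 (−1.43 to −1.19), −1.26 (−1.36 to −1.17) and −1.47 (−1.84 to −1.11). The other 5 members did not reach 2-fold, with log2 fold changes of 0.46 for Pdgfd, 0.25 for Vegfb, −0.07 for Vegfa, 0.36 for Pdgfra and −0.42 for Pdgfrb.

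Thus 1 of 9 members rose, against 1661 of 19215 genes (8.64%), and 3 of 9 fell, against 1751 genes (9.11%). The median log2 fold change was −0.07 over the members and 0.00 over all genes. By the ratio of the deposited TPM the genes past 2-fold split into 2301 up and 1234 down, and Pdgfc, at −0.98, no longer reached 2-fold. Removal of the mesonephros coincided with this step, and its part in these changes cannot be told apart from that of time. The nuclear rRNA share also fell at this step, from 9.06% to 1.31%. Among 103 snoRNA features 20 fell and none rose, with a median of −0.66, and with total counts 13 fell. The part of rRNA and snoRNA in the fall of Pdgfb was not tested.

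Markers of mesonephric and nephric cells, of macrophages and of glia and sympathetic neurons were followed at the same step. Of the 9 mesonephric and nephric markers 7 fell, from Six2 at −6.50 to Osr1 at −2.34, with Wnt9b (−5.70), Pax2 (−4.54), Gata3 (−3.55) and Cdh16 (−2.81) among those between. All 6 macrophage markers fell (median −1.35), as did 3 of the 5 glia and sympathetic neuron markers, among them Th (−5.33, −8.48 to −3.52, with 2 counts at E12.5) and Foxd3 (−2.91). Sox10, the most abundant of that list by TPM from E12.5 on, went the other way with 201 and 364 counts, at 0.98 and so short of 2-fold, which 1 marker of the list passed upward with total counts. Whether these cells carried Pdgfb, Pdgfc or Vegfc transcripts was not tested.

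Vessel markers gave a mixed picture beside the fall of Pdgfb and Vegfc. Of the 15 endothelial markers 1 fell, Plvap, a protein of endothelial fenestrae (−1.43), and the median of the list was −0.19. Summed over the list, scaled CPM was 523, 484, 375 and 362 from E11.5 to E14.5, with Plvap the most abundant marker by TPM at E11.5 and Cdh5 afterward. Among the 8 mural markers Rgs5 (−3.15) and Des (−1.63) fell and Cspg4 rose (1.24), and their summed scaled CPM was 305, 249, 286 and 340. Among the 4 lymphatic endothelial markers the receptor of hyaluronan Lyve1 (−1.83) and the transcription factor Prox1 (−1.09) fell, whereas Pdpn, which many other cells carry, rose (1.13); with total counts 1 of this list fell. No marker of these 3 lists was at 0 in any library.

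The partners of the ligands were followed through lists of their receptors, ligand processing genes and downstream signaling genes. A list of 8 genes held VEGF receptors, co-receptors and further ligands, and the PDGF receptor-like gene Pdgfrl. At E12.5, 2 of these genes fell. Nrp1, a co-receptor of VEGF, went from 178 to 71.7 scaled CPM (−1.31). Pgf, a ligand of Flt1, went from 5.72 to 1.69 scaled CPM (−1.76). Nrp1 was the most abundant of this list by TPM at E11.5 and Kdr, the main VEGF receptor of endothelial cells, in the later libraries. Kdr had 132, 105, 80.4 and 70.8 scaled CPM and did not reach 2-fold between neighboring days with TMM scaling. With total counts 4 genes of this list passed 2-fold down in E14.5 versus E13.5. Among 7 genes for the release or trimming of these ligands, the protease Adamts3, which cleaves the Vegfc precursor, fell (−1.57) and Pcsk5 rose (1.06). Plat, a protease that activates the Pdgfc product, was the most abundant of these 7 genes at E11.5 (39.4 TPM). At E12.5 it was Pcsk5 (30.2 TPM), and at E13.5 (32.7 TPM) and E14.5 (10.3 TPM) Furin, a convertase of several precursors. Of the 11 signaling genes downstream of the receptors, Plcg1 was the most abundant by TPM in each library. None of the 11 reached 2-fold in any of the comparisons with TMM scaling. With total counts 10 passed it down in E14.5 versus E13.5 and 9 in E14.5 versus E12.5.

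Interstitial and steroidogenic cell markers rose at the same step. Of 8 interstitial progenitor markers 3 rose at E12.5, among them the signal Wnt5a (1.19) and the Hedgehog receptor Ptch1 (1.17), beside the log2 fold change of 0.36 of Pdgfra. All 6 fetal Leydig cell markers rose at E12.5, by 2.30 (Cyp11a1) to 8.26 (Cyp17a1) for the 5 that had counts at E11.5. All 6 rose again at E13.5, with a median of 1.93, and none reached 2-fold at E14.5 versus E13.5. Insl3, a hormone of Leydig cells, was at 0 counts in the E11.5 library and at 47 counts at E12.5. Also at E12.5, 5 of 7 Sertoli cell markers, 4 of 6 pregranulosa cell markers, 5 of 6 germ cell markers and 3 of 6 gonadal somatic markers rose. The part of these cell types in the rise of Pdgfa was not tested.

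The E13.5 versus E12.5 comparison covers the day after sex determination, when both gonads enlarge. None of the 9 members reached 2-fold in either direction, against 629 of 19152 genes up (3.28%) and 380 down (1.98%). The member with the highest value was Pdgfrb at 0.39 (0.32 to 0.45), followed by Pdgfra at 0.19 (0.15 to 0.22). Pdgfb had the lowest at −0.29 (−0.43 to −0.15), close to Pdgfc at −0.28 (−0.40 to −0.17) and Pdgfa at −0.20 (−0.33 to −0.08). The intervals of Pdgfd, Vegfa, Vegfb and Vegfc all held 0, so no change of these 4 was detectable at this depth. The median was 0.02 over the members and 0.00 over all genes, and by the TPM ratio 804 genes passed 2-fold up and 269 down.

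Among the partners, Pgf rose at E13.5 (1.01), and no ligand processing or downstream signaling gene reached 2-fold. Neither did any of the 8 genes for hypoxia factors and their regulators or of the 12 hypoxia response genes. No endothelial, mural or lymphatic marker reached 2-fold. Platelet markers did: 6 of 7 fell, among them the chemokine Pf4 (−1.74) and the integrin subunit Itga2b (−1.13). Platelets are a known store of PDGF, and the summed scaled CPM of these markers was 20.2, 17.6, 6.49 and 6.27 from E11.5 to E14.5, while Pdgfb had its low values at E12.5 and E13.5 and its high value at E14.5. The part of platelets in the Pdgfb values was not tested.

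In the E14.5 versus E13.5 comparison, a single member changed past 2-fold. Pdgfb rose from 20.5 to 104 scaled CPM, and with the TMM scaling of this pair of libraries, on which all fold changes rest, its log2 fold change was 2.36 (2.24 to 2.48) or 5.12-fold. It was 1 of 9 members, against 1223 of 18992 genes up (6.44%), and no member fell, against 477 genes down (2.51%). The receptors had log2 fold changes of 0.48 (0.44 to 0.52) for Pdgfra and 0.21 (0.15 to 0.28) for Pdgfrb. Among the other ligands, Vegfa was at −0.31 (−0.40 to −0.23), Pdgfc at −0.29 (−0.45 to −0.14) and Pdgfa at 0.19 (0.05 to 0.34), and the intervals of Pdgfd, Vegfb and Vegfc held 0.

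These values rest on scaling that sets aside the rRNA of the E14.5 library. With total counts the median of all genes moved to −1.07, 323 genes were up and 11598 down, Pdgfb was at 1.28, and Pdgfc, Vegfa, Vegfb and Vegfc passed 2-fold down. With the TPM ratio the median was −1.62, 156 genes were up and 16900 down, Pdgfb was at 0.72 and each of the other 8 members passed 2-fold down, so the signs given for Pdgfra, Pdgfrb and Pdgfa turn under both of these scales.

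**Figure D2:**
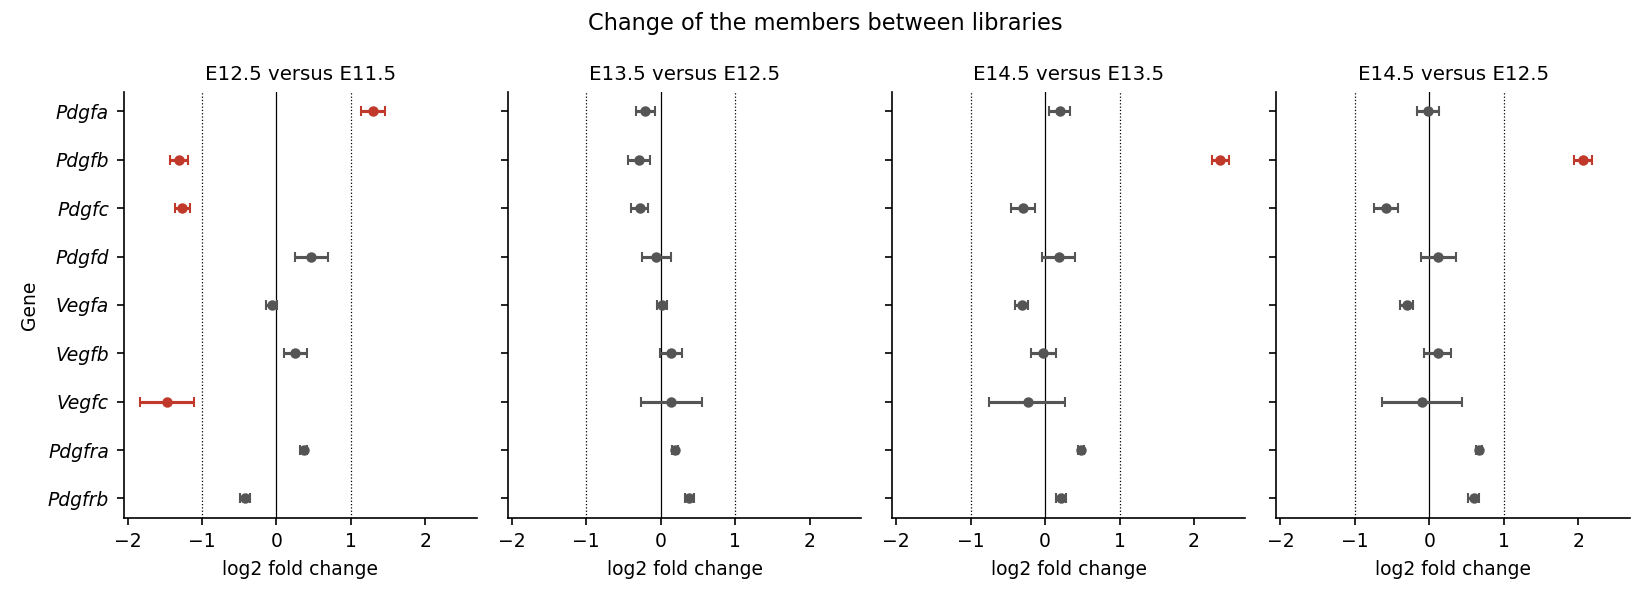
Log2 fold change (later over earlier library, TMM scaling of the pair) of each member in the 4 comparisons; a point is 1 gene, a bar its 95% Clopper-Pearson counting interval, dotted lines mark 2-fold, and red points lie past them. At E12.5, 1 member is up and 3 are down, no member passes 2-fold at E13.5, and Pdgfb alone does so at E14.5.

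Markers of endothelial cells and platelets, which are known to make Pdgfb, were followed beside it at E14.5. None of the 15 endothelial markers reached 2-fold, with values from −0.28 to 0.23 and a median of −0.03, and none of the 6 platelet markers kept by the filter did. Of the 8 mural markers, whose cells carry Pdgfrb, Rgs5 rose (1.04), with 168 and 162 counts before scaling, and did not reach 2-fold when rRNA and the most abundant genes were left out of the totals. Among 104 snoRNA features 83 rose and none fell, with a median of 1.63. With total counts 22 snoRNA features passed 2-fold up and 1 down, and 13 of the 15 endothelial and all 6 platelet markers passed it down. Summed over the snoRNA features, scaled CPM was 3253, 2233, 1945 and 5349 from E11.5 to E14.5. The 18S rRNA gene Rn18s-rs5 had 82689, 10661, 8232 and 680815 scaled CPM, and the mitochondrial rRNA genes had 31559, 21824, 20637 and 54062 (Rnr1) and 47678, 40103, 41131 and 84467 (Rnr2). The part of endothelial cells, platelets, rRNA or other RNA of these libraries in the Pdgfb count was not tested.

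Likeness of profiles was taken as the root mean square difference of centered log2 scaled CPM over the 4 libraries, among 14070 genes with at least 100 counts in their highest library. The 3 genes nearest to Pdgfb were Snord35a (0.03), Snora61 (0.04) and Mtcp1 (0.06), with snoRNAs in the first and second places. Snord35a had 550, 201, 210 and 482 counts, and Snora61 had 1577, 610, 601 and 1411.

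**Figure D3:**
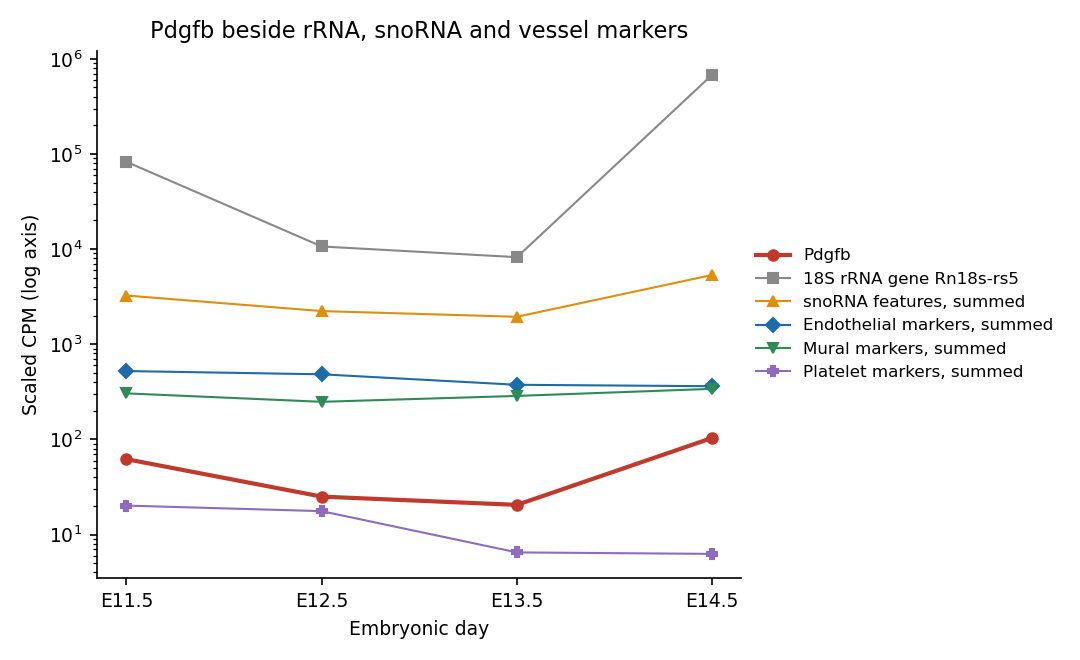
Scaled CPM (log axis) at each embryonic day of Pdgfb, of the 18S rRNA gene Rn18s-rs5, and of the summed snoRNA features and endothelial, mural and platelet markers; a point is 1 library. On this scale Pdgfb, Rn18s-rs5 and the snoRNA sum are each lowest at E13.5 and highest at E14.5, whereas the endothelial sum declines from 523 to 362. By TPM Pdgfb is higher at E11.5 (19.6) than at E14.5 (14.3), and the snoRNA sum is lowest at E14.5.

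The other members had neighbors of other kinds. Pdgfa lay nearest to Sema4a (0.03), Shc4 (0.04) and St3gal4 (0.04), and Pdgfc to Gpr98 (0.06), Sox11 (0.06) and Asxl3 (0.07). Pdgfd was closest to Lama4, Dnajc16 and Mapk3, and Vegfc to Zbtb16 (0.01), Bmpr1b (0.02) and Nlrc3 (0.06). Pdgfra was closest to Nhej1, Zswim3 and Dgka (each 0.03), and Pdgfrb to Ppip5k1, Armc7 and Zfp286. For Vegfa they included Chek1 and Ankrd32 (each 0.01), and for Vegfb they were Ttc19, Herc1 and Vps41 (each 0.01). With 4 libraries, each profile rests on 4 points.

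Vegfa is a known target of the hypoxia factors, whose genes were followed beside it. A list of 8 genes held these factors and their regulators, such as Egln3, with Hif1a the most abundant by TPM in each library. None of these genes reached 2-fold between neighboring days with TMM scaling. With total counts 1 of them passed it up in E12.5 versus E11.5. In E14.5 versus E13.5, 5 of them and 8 response genes passed it down with total counts. Of the 12 hypoxia response genes, with Eno1 the most abundant, Adm, a peptide that acts on endothelial cells, was the 1 gene that did, with TMM scaling, at −1.38 (−1.83 to −0.96) in E14.5 versus E13.5. Its counts were 251, 301, 300 and 54 from E11.5 to E14.5, and the log2 fold change of Vegfa in the same comparison was −0.31.

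Beyond the genes named so far, few list genes changed in E14.5 versus E13.5 with TMM scaling. Lyve1 passed 2-fold up (1.08) with 12 counts in each of both libraries and an interval of −0.19 to 2.37. Of the mesonephric list 3 markers rose, among them Cdh16 with 29 and 67 counts and Osr1 with 172 and 165; 2 of the list did so with total counts, where 4 fell, and 2 when rRNA and the most abundant genes were left out. The glia and neuron markers Foxd3 (6 and 14 counts) and Th (10 and 11 counts) passed 2-fold up, the interval of Th holding 0. With total counts 1 marker of this list passed it up and 1 down. The meiotic gene Sycp3 of the germ cell list rose (202 to 331 counts) and the pregranulosa gene Bmp2 fell (−1.24), while Pdgfra and Pdgfrb lay within 2-fold. With total counts no germ cell or lymphatic marker passed 2-fold up. On that scale 5 of 6 germ cell, 5 of 6 pregranulosa, 4 of 6 gonadal somatic and 3 of 4 lymphatic markers passed it down. So did 6 of the 7 ligand processing genes.

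The comparison of E14.5 with E12.5 covers the whole period after the mesonephros was removed, and it shares a library with each of the 3 others, as neighboring comparisons also do. Pdgfb was again the 1 member up, at 2.06 (1.94 to 2.18), against 1579 of 18704 genes (8.44%), and no member fell, against 623 genes (3.33%). Pdgfra was at 0.67 (0.62 to 0.71), Pdgfrb at 0.59 (0.52 to 0.67) and Pdgfc at −0.58 (−0.74 to −0.42), all short of 2-fold. Vegfa was at −0.30 (−0.39 to −0.21), and the intervals of Pdgfa, Pdgfd, Vegfb and Vegfc held 0. With total counts 467 genes were up and 10277 down and Pdgfb was at 1.01, and with the TPM ratio 279 were up and 15372 down and Pdgfb was at 0.56. The signs of both receptors turn under these scales, to −0.38 and −0.83 for Pdgfra and −0.45 and −0.91 for Pdgfrb, and Pdgfc passes 2-fold down at −1.63 and −2.08. In all, 4 members pass it down with total counts (Pdgfa, Pdgfc, Vegfa and Vegfc) and 6 with the TPM ratio, these 4 with Pdgfd and Vegfb.

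In the list of 8 genes that holds VEGF receptors, co-receptors and further ligands, and Pdgfrl, 2 genes passed 2-fold over the same interval. Pgf rose (1.59) from 53 to 95 counts, and Figf, which encodes VEGF-D, rose (1.28) from 267 to 385 counts. Egln3, a hydroxylase that marks hypoxia factors for degradation, fell (−1.19), and Adm fell (−1.73). With total counts 6 of the 8 genes for hypoxia factors and their regulators and all 12 hypoxia response genes passed 2-fold down. Rgs5 rose (1.22), with 117 counts at E12.5 and 162 at E14.5, and none of the 15 endothelial markers reached 2-fold, with a median of −0.53, whereas with total counts 13 passed it down. Beside the rise of Pdgfb, 72 of 104 snoRNA features rose and 6 of 7 platelet markers fell. With total counts 11 snoRNA features passed 2-fold up and 3 down, and all 7 platelet markers passed it down. Their part in the rise of Pdgfb was not tested. Of the 8 interstitial progenitor markers none reached 2-fold with TMM scaling, with a median of 0.14. All 6 Leydig cell markers rose, with a median of 2.76 (5 with total counts). With total counts neither Pgf, Figf nor Rgs5 reached 2-fold, and 4 of the 8 genes in the list that holds Pgf and Figf passed it down.

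Other transcripts share bases with some of the members, and how strand was handled in counting is not given in the sources used here. Vegfc shares 242 exon bases with the antisense gene LOC102635944, which had 13, 9, 6 and 8 counts. In GENCODE M21 genes on the opposite strand share 456 exon bases with Pdgfra (Gm42802), 219 with Pdgfra as well (Gm42803, of the type TEC), 147 with Pdgfc (Gm16000), 76 with Pdgfb (Gm41361) and 2 with Pdgfa (6330403L08Rik), and reads of such pairs cannot be told apart without strand. A microRNA precursor, mir-7025, shares 30 bases with Pdgfra and had at most 1 count, and mir-7213, which lies in an intron of Pdgfb, had 0 counts in every library, which allows for up to 3.

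Pdgfc and Vegfc fell together at E12.5 while Vegfa stayed within 2-fold, and the bases before their start sites are shown for this reason. RefSeq promoters (build GRCm38.p6) were found for 7 of the members, and entries for Pdgfb and Pdgfrb are missing. The windows are the 250 bases upstream of the start, in the direction of the gene, at chr3:81036166-81036415 (plus strand) for Pdgfc, chr8:54077282-54077531 (plus strand) for Vegfc and chr17:46032378-46032627 (minus strand) for Vegfa. They hold no exon base of their own gene, and the Vegfc window lies within the antisense gene LOC102635944. Capitals mark the GC box GGGCGG on either strand, overlapping matches included. Searched on both strands as well were the TATA box TATAAA and the core of the hypoxia response element ACGTG.
Pdgfc: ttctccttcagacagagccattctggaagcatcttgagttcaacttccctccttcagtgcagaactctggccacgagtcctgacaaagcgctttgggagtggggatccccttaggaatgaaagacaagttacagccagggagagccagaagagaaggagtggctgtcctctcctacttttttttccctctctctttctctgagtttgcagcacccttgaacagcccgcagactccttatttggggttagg
Vegfc: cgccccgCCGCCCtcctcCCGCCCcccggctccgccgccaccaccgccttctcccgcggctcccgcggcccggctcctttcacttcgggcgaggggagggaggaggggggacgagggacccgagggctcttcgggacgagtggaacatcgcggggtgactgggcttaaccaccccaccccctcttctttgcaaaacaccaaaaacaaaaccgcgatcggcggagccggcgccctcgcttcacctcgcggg
Vegfa: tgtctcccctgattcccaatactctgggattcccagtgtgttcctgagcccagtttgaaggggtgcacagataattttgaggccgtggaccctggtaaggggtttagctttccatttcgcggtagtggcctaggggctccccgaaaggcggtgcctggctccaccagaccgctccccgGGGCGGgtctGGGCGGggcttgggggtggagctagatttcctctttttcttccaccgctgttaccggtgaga

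The Pdgfc window held no match to any of the 3 motifs and had a GC content of 50.8%. The Vegfc window held 2 GC boxes at a GC content of 71.6%, and the Vegfa window held 2 at 59.2%. Neither of these windows held a TATA box or the hypoxia core. RefSeq gives Vegfa a further start, whose window (chr17:46025164-46025413, minus strand) is not printed because 218 of its bases are exonic, and it held 1 GC box and 1 hypoxia core. Over 32851 promoter windows of the same length, 32.7% held the GC box, 12.4% the TATA box and 16.6% the hypoxia core. A match is a description of letters, and no match says only that the letters are not in this window.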

How the data were processed

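Total RNA from pooled XX and XY gonads was measured in 1 library at each of 4 time points, grouped by the labels. The authors aligned trimmed reads with STAR (mm10, per the submitters' processing notes), collapsed duplicates by molecular tag and assigned reads to genes with featureCounts, and the deposited counts were used as they stand. RPKM and TPM are the authors' deposited values from the same counts and exon lengths, and both were recomputed from these without difference beyond rounding. Upstream tool versions and the strand setting are not given in the sources used here.

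Fold changes were computed in R 4.3.3 with edgeR 4.0.16: filterByExpr and TMM on each pair of libraries, log2 CPM with a prior count of 0.125, and an exact Clopper-Pearson 95% interval. With 1 library per time point no test over replicates was possible, and a gene was called at 2-fold or more. Levels carry exact Poisson intervals. Alternatives were DESeq2 1.42.0 size factors, total counts, TMM over 4 libraries, totals lacking rRNA and each library's top 10 genes, a prior count of 2, the TPM ratio (pseudocount 0.01), other filters and thresholds, and edgeR's exact test at preset variation. The fold and interval steps were tested on pairs simulated from 1 library with counting error only. These pairs were given no shift in rRNA share, so scaling against such a shift was not checked. Tables and figures were made in Python 3.11.15 with pandas 2.3.3, scipy 1.17.1 and matplotlib 3.10.9.

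Named genes are the 9 members, genes of a described list that passed 2-fold, were its most abundant or lay at 0, the 3 genes nearest each member in profile, and 3 rRNA genes. Some genes that this rule takes are not reported here. The members and the lists were chosen with earlier results of these data known.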

Additional observations from a re-analysis of the deposited data

How the results depend on the processing

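With DESeq2 size factors, TMM over all 4 libraries and a prior count of 2, each of the 36 log2 fold changes of the members stayed within its counting interval, and 35 of 36 did so with totals lacking rRNA and the most abundant genes. With total counts 24 of the 36 left it and with the TPM ratio 31, and no called value changed sign under any of these settings. In E14.5 versus E13.5, 5 members passed 2-fold with total counts and 8 with the TPM ratio, in place of 1, and 11921 and 17056 of all genes did, in place of 1700. In E14.5 versus E12.5 the numbers were 5 and 6 members, in place of 1, and 10744 and 15651 genes, in place of 2202. Both scales keep the rRNA of the E14.5 library in their denominators, and the median of all genes then lay at −1.04 and −1.49 in E14.5 versus E12.5. In E12.5 versus E11.5 it lay at 0.16 with total counts and 0.28 with the TPM ratio, and in E13.5 versus E12.5 at 0.13 with the TPM ratio.

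At a log2 fold change of at least 2, 0 members were past the threshold in E12.5 versus E11.5, in place of 4, and Pdgfb remained past it in both E14.5 comparisons; of all genes 1247, 151, 438 and 627 were past it in the order of the comparisons. Where the whole counting interval had to lie beyond 2-fold, the members past it numbered 4, 0, 1 and 1 as before, and all genes 1727, 166, 588 and 897. Without the filter 10244, 7495, 8740 and 9187 genes passed 2-fold, and with at least 10 counts in both libraries 2253 did in the first comparison and 514 in the second. In edgeR's exact test a preset coefficient of variation of 0.1 left 360 genes in the second comparison and 925 in the third, 0.2 left 1822, 54, 479 and 817, and 0.4 left 286, 1, 31 and 72. At 0.4 no member was past the threshold in any comparison, 0 in place of 4, 1 and 1, and at 0.1 and 0.2 the members' counts did not change. The TPM and RPKM orders of the members were identical in all 4 libraries, which follows from how these scales are built and is no check.

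With 1 library per day, the spread between litters is unknown, and a 2-fold difference between libraries compares these pools and not the days as such. Pooled sexes hide opposite changes in XX and XY gonads. Vegfc, with 48 counts at E14.5, has the widest intervals of the members, and smaller changes of this gene were not detectable at this depth.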
